A study of Mus musculus with 16 samples.

Results

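The transcriptome of WT E14tg2a mouse embryonic stem cells after 4 days of epiblast-like cell induction was set against that of the same WT cells held in 2i medium. At day 4 the cells stood in N2B27 medium with bFGF at 12 ng/mL on fibronectin, without LIF and without inhibitors as far as the labels state. In 2i medium they grew with LIF at 1000 U/mL, the MEK inhibitor PD0325901 at 1 µM and the GSK3β inhibitor CHIR99021 at 3 µM. Every gene with a symbol in the deposited table was a member: 21455 of 22122 entries, of which 21450 had enough reads to be tested. The comparison uses 4 of the 16 libraries of the series, 2 per stage. The series also holds WT cells at day 2, and cells labelled DKO and P14; its design concerns Prdm14, a zinc finger gene of naive and germ cells. The labels name no passage or clone, nor separate cultures for the pair of libraries at a stage, and the p-values cover no more than the spread among the libraries, which may be technical. In the text "rose", "fell", "higher" and "lower" are changes at day 4 relative to 2i medium.

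Naive embryonic stem cells resemble the epiblast of the blastocyst before implantation. In 2i medium LIF acts through STAT3, GSK3 inhibition releases β-catenin and TCF3-bound genes, and MEK inhibition holds off the ERK signal that drives cells out of the naive state. Once both inhibitors and LIF are gone and FGF is given, cells pass through a formative stage, the counterpart of the early postimplantation epiblast, from which the germ layers and primordial germ cells arise.

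Recovered reads summed over all entries came to 21072301 and 25957879 in the day 4 libraries, against 21218134 and 31392908 in 2i medium. A read shared by overlapping entries may count more than once in these sums. Levels below are normalized read counts per gene as the authors scaled them, given as library 1 and library 2, and changes are log2 fold changes from a limma fit with Benjamini-Hochberg adjusted p, called at 0.05. The 2 libraries of a stage correlated at 0.979 at day 4 and 0.977 in 2i medium over log2 values. Some overlapping entries on opposite strands held near-equal counts. The metallothionein gene Mt2 held 2664 and 2594 at day 4, against 1523 and 1467 in 2i medium, and the overlapping model Gm45774 held 2623 and 2546 at day 4, against 1508 and 1422 in 2i medium. Values of genes that share exon bases with another gene are therefore uncertain. Among the list members and named genes, beside those marked in place, these are Aldoa, Axin2, Bcl3, Bmp4, Cdk6, Cdkn1a, Cish, Col4a1, Col4a2, Dab2, Dnmt3a, Dnmt3l, Dsg2, Dusp5, Eed, Eomes, Esrp1, Evx1, Ezh2, Fgfr1, Fn1, Foxd3, Foxf1, Fst, Gata3, Gata6, Gbx2, Hmga1, Hmga2, Hmgcs1, Igf2bp1, Irs1, Irs2, Irx3, Kcnq1ot1, Lef1, Lin28a, Meg3, Meis1, Mxd4, Nid1, Nrp1, Otx2, Plagl1, Pou3f1, Sall4, Shmt2, Slc2a1, Snrpn, Sox1, Sox15, Sox17, Sox4, Spp1, Spry1, Stat3, Suz12, Tap1, Tdh, Tet2, Tfap2a, Tfcp2l1, Thbs1, Trpm1, Zeb1, Zeb2 and Zic1.

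The move from 2i medium to day 4 changed 8707 of 21450 genes (40.6%), with 4687 higher (21.9%) and 4020 lower (18.7%). These shares are the background for every list count below. Some genes belong to several lists, such as Lef1, Tdgf1 and Bmp4, so the counts of different lists are not independent. Among genes with a mean of 100 to 1000 normalized counts 48.5% were called. Where a list lies near these shares, its count says little about its members. Large rises outnumbered large falls: 1025 genes rose and 526 fell by at least 3 on the log2 scale, and 56 rose and 26 fell by at least 6. Of the normalized counts of entries with a symbol, genes that rose made up 15.4% at day 4 and 6.73% in 2i medium. Genes that fell made up 18.2% at day 4 and 27.7% in 2i medium. The split between higher and lower calls depended on how libraries were scaled. It was 3988 to 5269 with each library centred on its median gene, 5312 to 2793 with libraries scaled to the total of named genes and 5373 to 2706 with limma-voom. The median change over all genes was 0.01, -0.13, 0.17 and 0.17 in these 4 fits. Small changes whose sign turns with the scaling are given no direction here.

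**Figure D1:**
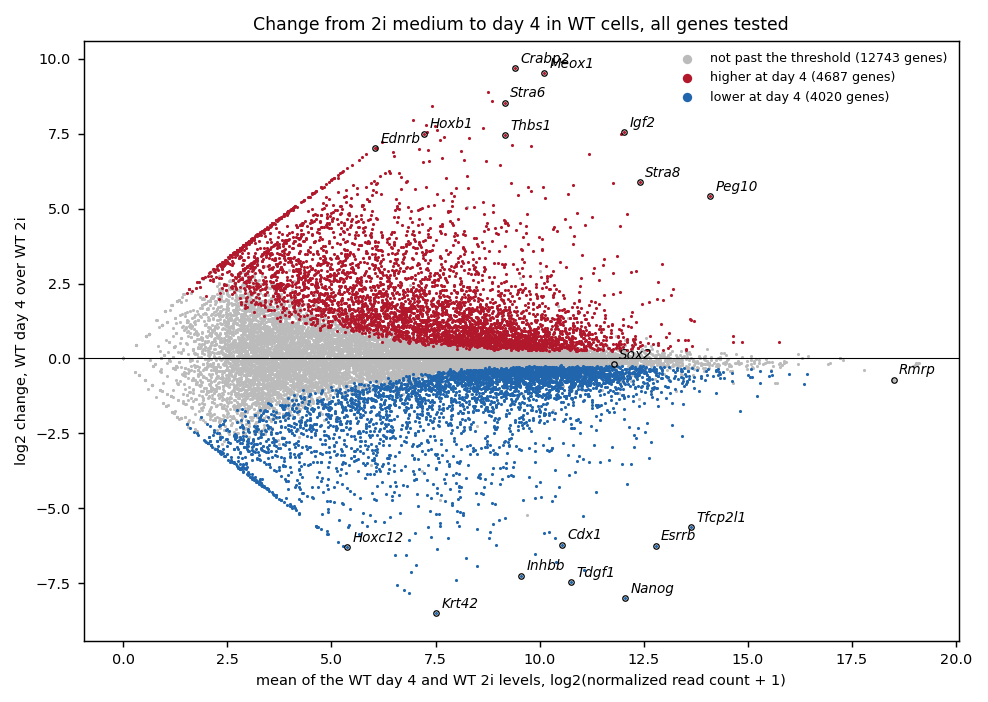
Log2 change at day 4 over 2i medium against mean level for the 21450 genes tested in WT cells, each point a gene. The 4687 higher genes (red) reach further from 0 than the 4020 lower genes (blue); Crabp2 and Meox1 lie at the top, Nanog and Krt42 at the bottom, and Sox2 lies near 0.

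The share of genes that changed differed by kind of transcript. Among 15102 protein-coding genes 27.5% rose and 21.6% fell. Among 1888 processed pseudogenes 37 rose and 212 fell, and among 241 small nucleolar RNAs 2 rose and 25 fell. Median log2 changes were small, at -0.27 for processed pseudogenes and -0.23 for small nucleolar RNAs. Shares by kind, locus length and chromosome were not recomputed with other scalings. Protein-coding genes were also unlike by the length of their locus. Ranked by length into 5 equal groups, the group with the longest loci, from 70263 bases up, held genes of which 39.6% rose and 17.8% fell with a median log2 change of 0.31. In the group with the shortest loci, up to 7595 bases, 21.2% rose and 21.4% fell with a median of -0.02. The middle group held 25.0% risen and 22.7% fallen genes. Among autosomes the share of risen genes was lowest on chromosome 13 (15.8%) and highest on chromosome 18 (27.8%), next to 27.5% on chromosome 14.

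Naive pluripotency genes fell, with 1 exception. Of 22 measured naive genes 21 fell and 1 rose, with a median log2 change of -3.79 against 0.01 over all genes; the naive marker Dppa3 was not analysed here. Nanog, the homeobox factor at the core of the network, held 31.3 and 32.5 normalized counts at day 4, against 8547 and 8336 in 2i medium (log2 -8.00 ± 0.0954 SE, adjusted p = 3.7e-17). Esrrb, an orphan nuclear receptor that substitutes for Nanog in mouse cells, held 179 and 183 at day 4, against 13163 and 14719 in 2i medium (log2 -6.26 ± 0.099 SE, adjusted p = 8.6e-16). Both day 4 libraries lay far below both 2i libraries for each gene. Over all genes 33.4% had both day 4 libraries below both 2i libraries, and 36.3% had both above.

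In the same list Jam2 and Nr0b1 fell further than Esrrb (log2 -7.05 and -6.81). Tcl1 changed by log2 -6.65, with -5.76 without day 4 library 1 and -7.55 without day 4 library 2. The naive factors named next kept more. The STAT3 target Tfcp2l1 held 485 and 527 at day 4, against 24040.0 and 26329 in 2i medium (49.7-fold lower), and Zfp42, which encodes REX1, held 482 and 425 at day 4, against 8897 and 7852 in 2i medium (18.4-fold lower). Klf4 and Klf2, Krüppel-like factors downstream of LIF and of MEK inhibition, fell 25.5-fold and 10.3-fold. The smallest falls in the list were those of Sox15 (2.52-fold) and Spp1 (2.99-fold), and Prdm14 fell 5.69-fold, to 219 and 166 at day 4, against 1083 and 1096 in 2i medium. The gene that rose was Gbx2, a homeobox gene of the naive state and of the hindbrain border, with 6134 and 5990.0 at day 4, against 822 and 854 in 2i medium.

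The largest falls included genes of receptors, transporters and filaments. The orphan nuclear receptor gene Nr0b1 and the junction adhesion gene Jam2 fell 112-fold and 132-fold. Slc15a1, an oligopeptide transporter gene, fell 169.7-fold. Trpm1, a cation channel gene, fell 75.1-fold by stage means with 3 reads as the floor. Its change was log2 -5.81 without day 4 library 1 and -8.01 without day 4 library 2. Accsl, which resembles plant ACC synthases by sequence, held 2.16 and 9.93 at day 4, against 694 and 731 in 2i medium. Krt42 and Krt17, type I keratin genes on chromosome 11, held no read in either day 4 library, against 336 and 391 for Krt42 and 205 and 252 for Krt17 in 2i medium. Nkx6-3, a homeobox gene, and Myh13, an extraocular muscle myosin gene, also had none at day 4, against 234 and 192 for Nkx6-3 and 179 and 198 for Myh13 in 2i medium. With 3 reads per library taken as the floor, these falls are at least 122-fold, at least 77-fold, at least 71.7-fold and at least 63.4-fold.

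In all, 285 genes had no read in both day 4 libraries, and 4 of them averaged at least 100 normalized counts in 2i medium. In the other direction 400 genes had no read in both 2i libraries, and 7 of them averaged at least 100 at day 4. Among these 400 were Ntrk2, the receptor gene for brain-derived neurotrophic factor, with 358 and 321 at day 4. Car4, a membrane carbonic anhydrase gene, had 232 and 259, and Ednrb, the endothelin receptor gene of neural crest cells, had 109 and 153. Sost, a Wnt antagonist gene best known from bone, had 110.1 and 154, and Cyp1b1, a cytochrome P450 gene that can oxidise retinol, had 104 and 120.1.

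**Figure D2:**
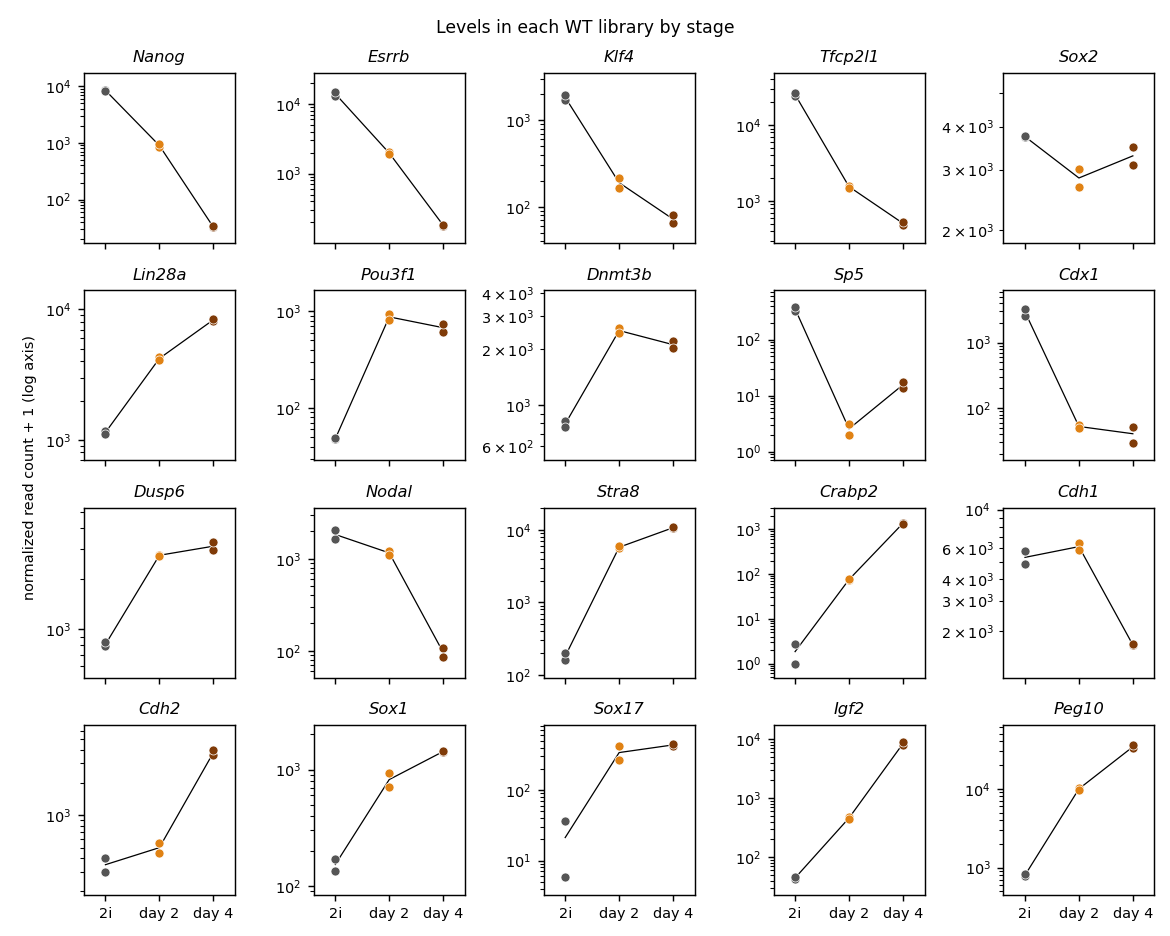
Normalized read counts plus 1 on a log axis in each WT library at 2i medium, day 2 and day 4, for 20 genes; points are libraries and lines join stage means. Nanog, Esrrb, Klf4 and Tfcp2l1 step down at both days, Cdx1 is already low at day 2, Cdh1 drops after day 2, and Igf2, Peg10 and Crabp2 climb at both days.

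General pluripotency genes did not share one direction. Of 17 measured, 3 rose and 11 fell (median -0.73). Sox2, which pluripotent and neural progenitor cells both use, held 3083 and 3493 normalized counts at day 4, against 3736 and 3745 in 2i medium and did not pass the threshold (log2 -0.19, adjusted p = 0.14). Lin28a and Lin28b, which encode proteins that block maturation of let-7 microRNAs, rose 7.3-fold and 4.2-fold. Tdgf1, the Nodal coreceptor gene, and Tdh, a threonine dehydrogenase gene typical of mouse embryonic stem cells, fell 178-fold and 63.6-fold. Sall4, L1td1 and Dppa2 fell 1.66-fold, 7.69-fold and 8.33-fold. The entry for Pou5f1, which encodes OCT4, held only 0 and 1.81 at day 4, against 13.2 and 11 in 2i medium, although its level is known to be high in embryonic stem cells. Gm19553, an antisense model over the 3′ part of Pou5f1 on chromosome 17, held 777 and 711 at day 4, against 9092 and 8187 in 2i medium (log2 -3.53, adjusted p = 6e-13). An entry with almost no read beside an overlapping one with many cannot be read as a transcript level, so neither is taken as the level of OCT4 transcript.

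Formative genes split into a larger risen and a smaller fallen set. Of 23 measured, 15 rose and 6 fell (median 1.42). The POU factor gene Pou3f1 held 609 and 744 at day 4, against 46.8 and 47.4 in 2i medium (log2 3.81 ± 0.21 SE, adjusted p = 1e-09), and the de novo methyltransferase genes Dnmt3a and Dnmt3b rose 2.56-fold and 2.67-fold. SoxC genes rose strongly: Sox4 held 7136 and 7803 at day 4, against 331 and 364 in 2i medium, and Sox11 rose 16.4-fold. Wnt8a, a ligand gene of the early epiblast, held 319 and 315 at day 4, against 4.8 and 0.847 in 2i medium (97.2-fold higher; log2 7.43 without 2i library 1 and 5.78 without 2i library 2).

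Fgf5 and Otx2, much used markers of epiblast-like cells, were not higher at day 4. Fgf5 held 2.16 and 0 at day 4, against 16.8 and 11.9 in 2i medium, with 16.2 and 17.9 at day 2. Otx2 held 10.8 and 2.71 at day 4, against 24 and 26.3 in 2i medium, with 182 and 156 at day 2; its call was lost when only the 4 libraries were fitted (adjusted p = 0.075). Foxd3 and Fst, which encode a forkhead factor and follistatin, fell 40.5-fold and 27.1-fold. Part of the formative list was thus higher at day 4, while Fgf5 and Otx2 went against the epiblast-like label at that day.

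LIF pathway genes fell for the most part, 8 of 13 with 2 higher. The receptor gene Lifr held 859 and 826 at day 4, against 2552 and 2289.8 in 2i medium (log2 -1.52 ± 0.0998 SE, adjusted p = 8.3e-09). Stat3 fell 4.16-fold, and Bcl3, an IκB family gene induced by STAT3, held 32.4 and 8.13 at day 4, against 268 and 311 in 2i medium (16.6-fold lower; log2 -4.99 without day 4 library 1 and -3.12 without day 4 library 2). Cish, a suppressor of cytokine signalling gene that STAT5 induces, rose 9.9-fold to 84.2 and 84.9.

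Wnt target genes divided. Of 19 measured, 8 rose and 9 fell. Sp5, a zinc finger gene that β-catenin and TCF factors control directly, held 12.9 and 16.3 at day 4, against 319 and 385 in 2i medium (log2 -4.50 ± 0.806 SE, adjusted p = 0.00033). Cdx1, a caudal homeobox gene, held 28.1 and 51.5 at day 4, against 2582 and 3275 in 2i medium (74.5-fold lower), and the negative feedback gene Axin2 held 295 and 328 at day 4, against 577 and 529 in 2i medium (1.78-fold lower). Lef1, which encodes a TCF family factor, held 510.4 and 480.3 at day 4, against 7.2 and 10.2 in 2i medium (51.8-fold higher), and Nkd1, Tnfrsf19 and Sp8 rose 2.88-fold, 2.96-fold and 3.36-fold. Tcf7, Znrf3 and Myc fell less than 2-fold.

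The promoter of Sp5 is shown because it holds the TCF/LEF motif CTTTGAT (in capitals), 104 bases before its start site. Sequences run 5′ to 3′ on the gene's strand from 250 bases before to 50 after the start (RefSeq, GRCm38.p6). The Sp5 window is chr2:70474673-70474972, plus strand.
Sp5: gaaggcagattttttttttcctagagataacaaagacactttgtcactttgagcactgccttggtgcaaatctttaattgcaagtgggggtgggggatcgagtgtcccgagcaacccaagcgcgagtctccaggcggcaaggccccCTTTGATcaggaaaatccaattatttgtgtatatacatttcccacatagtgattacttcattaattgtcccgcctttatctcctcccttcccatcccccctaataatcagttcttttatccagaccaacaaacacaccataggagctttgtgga
Among the 11 Wnt target genes with a promoter entry, 2 held this motif on either strand, Sp5 and Tnfrsf19 (18.2%). Of all 12719 tested genes with a promoter entry, 390 held it (3.07%). Sp5 fell and Tnfrsf19 rose.

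ERK response genes were mostly higher, 11 of 19, with 4 lower. The ERK phosphatase genes Dusp4, Dusp5 and Dusp6 rose 19-fold, 8.45-fold and 3.87-fold. Dusp6 held 2956 and 3302 at day 4, against 784 and 828 in 2i medium. Spred1, Spry1 and Il17rd, feedback inhibitors of FGF signalling, rose 2.98-fold, 2.36-fold and 2.54-fold, and the immediate early gene Egr1 held 86.3 and 87.6 at day 4, against 7.2 and 12.7 in 2i medium. Etv4 and Etv5, ETS factor genes also counted as ERK outputs, went the other way and fell 2.31-fold and 2.82-fold.

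Among 17 FGF genes 8 rose and 3 fell. The ligand gene Fgf4, the main FGF of naive cells, held 23.7 and 15.3 at day 4, against 1911 and 1829.8 in 2i medium (93-fold lower). The receptor genes Fgfr1, Fgfr2 and Fgfr3 rose 2.14-fold, 3.77-fold and 25.3-fold; Fgfr2 shares exon sequence with Ctbp2 and Fgfr3 with a noncoding gene. Fgfbp1 and Fgfbp3, carrier proteins that release FGF from matrix, rose 10.7-fold and 24.9-fold.

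Nodal signalling genes fell at the level of ligand, coreceptor and antagonist. Of 18 measured, 11 fell and 6 rose (median -1.48). Nodal held 106 and 84.9 at day 4, against 1625 and 2036 in 2i medium (log2 -4.25 ± 0.159 SE, adjusted p = 1.4e-11), and the antagonist gene Lefty2 held 8.63 and 10.8 at day 4, against 492 and 549 in 2i medium. Inhbb, an activin subunit gene, fell 153-fold, and Smad7, an inhibitor gene that the pathway induces, fell 38.3-fold. The signal transducer genes Smad2 and Smad3 and the receptor gene Acvr2b rose 1.93-fold, 4.34-fold and 2.53-fold. In the BMP pathway Bmp4 held 12.9 and 16.3 at day 4, against 479 and 434 in 2i medium (29.4-fold lower), while Bmp7 rose 3.42-fold and Id2, which encodes an inhibitor of bHLH factors, held 254 and 209 at day 4, against 18 and 15.2 in 2i medium. Id1 and Id3, common BMP readouts, did not pass (log2 -0.39 and -0.38).

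Genes of the retinoic acid pathway rose for the most part. Retinol enters cells through STRA6, is bound by RBP and CRABP proteins, is oxidised to retinoic acid and is cleared by CYP26 enzymes, while RAR receptors bind direct repeat elements near target genes. Of 24 measured genes 17 rose and 2 fell (median 2.58). Crabp2 held 1405 and 1314 at day 4, against 0 and 1.69 in 2i medium (at least 443-fold higher). Stra6 held 1120.1 and 1162 at day 4, against 0 and 8.47 in 2i medium. By stage means with 3 reads as the floor, Stra6 was 189-fold higher. The fitted change was log2 8.98 without 2i library 1 and 10.41 without 2i library 2 for Crabp2 and log2 6.91 without 2i library 1 and 10.16 without 2i library 2 for Stra6. For each gene the first 2i library held no read, and both day 4 libraries lay above both 2i libraries, as for 36.3% of all genes.

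The clearing enzymes and known targets moved too. Cyp26a1 held 186 and 194 at day 4, against 7.2 and 3.39 in 2i medium (log2 4.99 ± 0.463 SE, adjusted p = 4.2e-07), and Cyp26b1 rose and held 87.4 and 116 at day 4, against 6.0 and 1.69 in 2i medium. Stra8, a meiotic entry gene named for its response to retinoic acid, held 10486 and 10887 at day 4, against 162 and 199 in 2i medium (59.2-fold higher). The TALE homeobox gene Meis1 rose 58.5-fold, and Dhrs3 and Rdh10, which encode retinol oxidoreductases, rose 5.32-fold and 4.85-fold. The synthesis gene Aldh1a2 held 34.5 and 61.4 at day 4, against 32.4 and 55.9 in 2i medium and did not pass (adjusted p = 0.86). Receptor genes divided: Rarb held 331 and 362 at day 4, against 40.8 and 47.4 in 2i medium (log2 2.95 ± 0.208 SE, adjusted p = 1.8e-08), whereas Rarg fell 2.22-fold and Rara 1.54-fold. Rarb shares exon bases with Top2b, which also rose (log2 1.45).

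The promoters of Cyp26a1 and Rarb are shown because they hold the direct repeat with a spacer of 5 bases (DR5), the retinoic acid response element, in capitals. It starts 32 bases before the start site of Cyp26a1, on the minus strand of the gene, and 53 bases before that of Rarb. The windows are chr19:37697558-37697857, plus strand, and chr14:16575427-16575726, minus strand (RefSeq, GRCm38.p6).
Cyp26a1: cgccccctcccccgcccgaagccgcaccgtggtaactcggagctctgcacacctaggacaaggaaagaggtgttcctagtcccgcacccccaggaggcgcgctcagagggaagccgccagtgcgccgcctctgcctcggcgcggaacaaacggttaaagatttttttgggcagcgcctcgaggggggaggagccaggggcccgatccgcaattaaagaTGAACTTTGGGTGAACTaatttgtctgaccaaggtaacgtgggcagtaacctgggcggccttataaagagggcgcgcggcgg
Rarb: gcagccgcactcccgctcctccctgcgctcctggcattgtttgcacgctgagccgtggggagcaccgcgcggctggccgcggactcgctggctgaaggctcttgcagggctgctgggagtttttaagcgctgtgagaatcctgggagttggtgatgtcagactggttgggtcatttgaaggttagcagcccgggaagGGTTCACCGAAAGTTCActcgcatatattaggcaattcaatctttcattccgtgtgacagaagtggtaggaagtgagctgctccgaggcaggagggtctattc
Only 9 of 12719 tested genes with a promoter entry held a DR5 match (0.0708%), and 2 of the 19 listed retinoic acid genes with an entry were among them. The promoter of Stra8 held no match, and 0 of 21 Hox genes with an entry held one. This search was chosen after the values were seen. Of the 9 genes, Cyp26a1, Rarb and Prokr2 rose, Blvrb, Cfap45, Gm1043 and Syndig1 fell, and Gm14133 and Gm4631 did not pass.

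Changes of Hox genes ran with their place in the clusters. These homeobox genes lie in 4 clusters, and those at the 3′ end (low numbers) pattern the hindbrain and respond first to retinoic acid, while those at the 5′ end (high numbers) pattern the trunk and tail. Of 22 measured genes of paralogue groups 1 to 8, 14 rose and 0 fell, with a median log2 change of 2.54. Of 16 genes of groups 9 to 13, 0 rose and 9 fell, with a median of -1.99. The border between 8 and 9 was drawn after the values were seen.

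All 8 measured Hoxb genes of groups 1 to 8 rose. Hoxb1 held 276 and 315 at day 4, against 0 and 1.69 in 2i medium (at least 96.3-fold higher; log2 6.78 without 2i library 1 and 8.21 without 2i library 2), and Hoxb2 held 313 and 313 at day 4, against 2.4 and 0.847 in 2i medium. Hoxb3 had no read in 2i medium and 152 and 142 at day 4; Hoxb2 and Hoxb3 share bases with the antisense gene Hoxb3os. In the Hoxa cluster Hoxa5 rose 8.45-fold. At the other end Hoxc12 had no read at day 4 and 104 and 58.5 in 2i medium, and Hoxc13 and Hoxd13 fell 3.92-fold and 4.02-fold. In the Hoxd cluster none of 4 genes of groups 1 to 8 passed, and their median was -0.75.

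**Figure D3:**
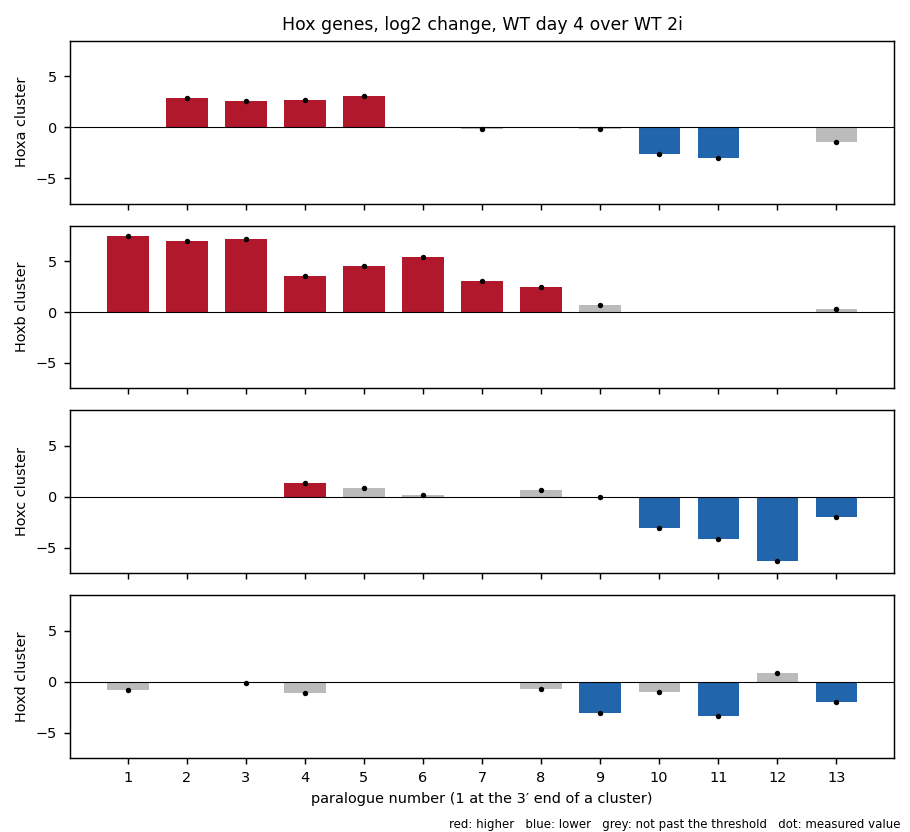
Log2 change at day 4 over 2i medium for Hox genes by cluster (rows) and paralogue number (horizontal axis); red bars rose, blue bars fell, grey bars did not pass, and dots mark measured values. Red bars stand only at numbers 1 to 8 and blue bars only at 9 to 13.

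Neural genes rose broadly. Of 25 measured neuroectoderm genes 18 rose and 4 fell (median 2.85). Sox1, the earliest neuroectoderm SOX gene, held 1426 and 1429 at day 4, against 134 and 170.3 in 2i medium (log2 3.23 ± 0.186 SE, adjusted p = 1.8e-09), and Pax6 held 209 and 271 at day 4, against 16.8 and 12.7 in 2i medium (15.3-fold higher). Irx3 and Zic1, genes of the neural plate, rose 23.8-fold and 39.5-fold, and the intermediate filament gene Nes rose 5.32-fold. Tubb3, a tubulin gene of neurons, fell 1.5-fold, and Otx1, a forebrain gene, fell and held 0 and 1.81 at day 4, against 6.0 and 13.6 in 2i medium. In bulk RNA, more cells of a type and more RNA per cell cannot be told apart.

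Genes for axon guidance rose alongside, 25 of 36 with 7 lower (median 2.16). The ephrin gene Efnb2 held 3089.7 and 3416 at day 4, against 150.1 and 160.1 in 2i medium (20.8-fold higher), and Plxna2 and Nrp1, semaphorin receptor genes, rose 7.87-fold and 10.3-fold. Sema3c, a secreted semaphorin gene, held 584 and 574 at day 4, against 16.8 and 16.9 in 2i medium. Ntn1 and Sema4b fell 4.09-fold and 4.25-fold, and the ephrin receptor gene Epha2 fell 4.19-fold. Neural crest genes did not move as a unit: 8 of 16 rose and 4 fell, Sox10 and Tfap2a did not pass, Zeb2 rose 20.7-fold and Ngfr fell 3.39-fold.

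Primitive endoderm genes rose for the most part. Of 22 primitive endoderm genes 16 rose and 2 fell (median 2.85). Gata6 and Sox17, transcription factor genes of the lineage, both rose, Gata6 by 26-fold. Sox17 held 423 and 449 at day 4, against 4.8 and 35.6 in 2i medium (log2 4.91). Its change was log2 3.58 without 2i library 1 and 6.23 without 2i library 2. Both of its day 4 libraries lay above both 2i libraries, as for 36.3% of all genes. Cubn, the cubilin gene of endocytic epithelia, held 879.5 and 959 at day 4, against 4.8 and 0 in 2i medium. By stage means with 3 reads as the floor, Cubn was 250.3-fold higher. Its change was log2 9.84 without 2i library 1 and 7.31 without 2i library 2, and an antisense model overlaps it. The partner genes of Cubn, Lrp2 and Dab2, rose 8.66-fold and 52.6-fold. Ttr, a late visceral endoderm gene, held 5.4 and 4.51 at day 4, against 1.2 and 0 in 2i medium and did not pass.

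Mesoderm markers were uneven. Of 20 measured 10 rose and 4 fell. Meox1, a homeobox gene of somites, held 2168 and 2258 at day 4, against 2.4 and 1.69 in 2i medium (731-fold higher). Tbx1 held 93.9 and 84.9 at day 4, against 0 and 1.69 in 2i medium, and Foxf1 and Hand1, genes of lateral mesoderm, rose: Foxf1 held 57.2 and 43.3 at day 4, against 2.4 and 0 in 2i medium, and Hand1 held 30.2 and 46.9 at day 4, against 0 and 7.62 in 2i medium (log2 2.17 without 2i library 1 and 5.27 without 2i library 2). Eomes, a T-box gene of the primitive streak and trophoblast, held 90.6 and 106 at day 4, against 1234 and 1208 in 2i medium (12.4-fold lower), and Evx1 and Wnt3a, genes of the streak, fell at least 28.9-fold (log2 -6.66 without day 4 library 1 and -4.25 without day 4 library 2) and at least 17.3-fold. Mixl1 did not pass, at 15.1 and 10.8 at day 4, against 19.2 and 27.1 in 2i medium.

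Markers of other cells were checked beside these lists. Of 12 trophectoderm genes 8 rose and 3 fell, with Gata3 at 93.9 and 101 at day 4, against 12 and 13.6 in 2i medium and Tead4 at 139 and 144 at day 4, against 1017 and 1171 in 2i medium. Of 13 blood and endothelial genes 7 rose and 1 fell, and most stood low: Tal1 held 12.9 and 21.7 at day 4, against 15.6 and 5.08 in 2i medium and Gata1 21.6 and 7.22 at day 4, against 9.6 and 3.39 in 2i medium. Pecam1, an adhesion gene of endothelium and of naive stem cells, held 89.6 and 207 at day 4, against 2605 and 2771 in 2i medium (19.6-fold lower; log2 -3.69 without day 4 library 1 and -4.89 without day 4 library 2). Of 11 fibroblast genes 7 rose; Col1a1 held 25.9 and 10.8 at day 4, against 15.6 and 33 in 2i medium, and Dcn held 8.63 and 1.81 at day 4, against 0 and 0 in 2i medium. Tagln and Acta2, actin cytoskeleton genes of smooth muscle and mesenchyme, rose. Tagln rose 23.8-fold, and Acta2 25.6-fold by stage means with 3 reads as the floor. For Acta2 the change was log2 6.31 without 2i library 1 and 4.55 without 2i library 2. Tagln shares bases with Pcsk7 and a noncoding model. Their part in the other results was not tested.

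Genes of cell contacts changed in both directions. Cdh1, the E-cadherin gene, held 1658 and 1684 at day 4, against 4870.0 and 5769 in 2i medium (log2 -1.67 ± 0.131 SE, adjusted p = 6.9e-08), and Cdh2, the N-cadherin gene, held 3551 and 3976 at day 4, against 300.1 and 399 in 2i medium (log2 3.44 ± 0.193 SE, adjusted p = 1.3e-09). Neither gene's stages overlapped. Over all genes 36.3% had both day 4 libraries above both 2i libraries, and 33.4% had both below. Cdh11, a mesenchymal cadherin gene, rose 20.2-fold by stage means with 3 reads as the floor. Its change was log2 4.02 without 2i library 1 and 6.15 without 2i library 2. The transcription factor gene Zeb2 rose 20.7-fold, whereas Zeb1 did not pass (log2 0.20). Epithelial genes rose as well: Epcam held 439 and 409 at day 4, against 137 and 121 in 2i medium, Esrp1, an epithelial splicing factor gene, rose 6.43-fold, and Cldn6 rose 11.9-fold. The desmosome genes Dsg2 and Jup fell 7.14-fold and 4.12-fold, and Dsc2 rose 9.07-fold.

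Matrix genes were largely higher. Of 15 collagens outside type IV 10 rose and 1 fell. Col6a2 held 379 and 421 at day 4, against 2.4 and 3.39 in 2i medium (104-fold higher), Col2a1 rose 24.6-fold, and Col18a1 held 15152 and 14549 at day 4, against 3594 and 3322 in 2i medium. In basement membrane Col4a1 and Col4a2, neighbouring genes that share a promoter region, rose 17-fold and 20.8-fold, and Lamb1 rose 8.05-fold. The nidogen gene Nid1 and the fibronectin gene Fn1 fell 5.57-fold and 2.79-fold. Thbs1, a matricellular gene, held 1154 and 1134 at day 4, against 7.2 and 4.24 in 2i medium (175-fold higher). The heparin-binding growth factor genes Ptn and Mdk rose; Ptn held 914 and 822 at day 4, against 2.4 and 0 in 2i medium, and Mdk rose 7.62-fold, and the fibronectin receptor gene Itga5 fell 2.97-fold.

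Imprinted genes, which are expressed from the maternal or the paternal copy, were mostly higher, 21 of 33 with 3 lower. Peg10, a retrotransposon-derived gene, held 32603 and 35542 at day 4, against 783 and 821 in 2i medium (log2 5.41 ± 0.165 SE, adjusted p = 1.6e-12). Cdkn1c, which encodes the cell cycle inhibitor p57, held 4389 and 5109.9 at day 4, against 155 and 207 in 2i medium, and H19, a noncoding RNA gene, held 790.0 and 851 at day 4, against 15.6 and 3.39 in 2i medium. Igf2, a growth factor gene, held 7862 and 8845 at day 4, against 42 and 44.9 in 2i medium (188-fold higher); entries overlap all 3 of Cdkn1c, H19 and Igf2. Genes of opposite parental origin rose within the same domains, such as Igf2 and H19 on chromosome 7, and Dlk1 and Meg3 on chromosome 12 (4.78-fold and 2.61-fold). Plagl1, a zinc finger gene said to coordinate imprinted genes, fell 9.1-fold. Kcnq1ot1, Snrpn and Igf2r did not pass (log2 -0.06, -0.34 and 0.20).

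Of 16 insulin-like growth factor genes 8 rose and 2 fell. Igfbp5 held 4420.2 and 4886 at day 4, against 39.6 and 39.8 in 2i medium (114-fold higher), Igfbp4 rose 43.6-fold, and the receptor gene Igf1r rose 2.87-fold. The adaptor genes Irs1 and Irs2 rose 7.28-fold and 4.99-fold. Igfbp2 fell 1.76-fold.

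DNA methylation genes exchanged members. The TET dioxygenase genes Tet1 and Tet2, which start demethylation, fell 5.5-fold and 11.6-fold, while Tet3 held 1403 and 1451 at day 4, against 295 and 342 in 2i medium (4.48-fold higher). Dnmt3l, the cofactor gene of de novo methylation, held 445 and 456 at day 4, against 549.8 and 529 in 2i medium and did not pass (adjusted p = 0.21), with 2135 and 2112 at day 2. The maintenance gene Dnmt1 did not pass and Uhrf1 fell 1.71-fold. Zfp57, which guards methylation at imprinted regions, fell 3.53-fold.

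Polycomb subunits divided, 5 of 27 higher and 11 lower (7 lower with libraries scaled to the named total). Over all genes 21.9% were higher and 18.7% lower. The core genes Suz12 and Eed and the accessory gene Mtf2 fell 2.32-fold, 1.81-fold and 3.07-fold; Mtf2 shares bases with Tmed5. The accessory gene Phf19 rose 2.45-fold, and among polyhomeotic genes Phc1 fell 3.28-fold and Phc2 rose 4.15-fold. Ezh2 and Jarid2 did not pass.

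Germline genes that DNA methylation keeps silent split evenly, 9 of 23 higher and 8 lower. Dazl, an RNA-binding protein gene of germ cells, fell 11.5-fold and held 15.1 and 6.32 at day 4, against 137 and 112 in 2i medium, and the ribosomal paralogue Rpl10l fell 15.3-fold. Meioc, a meiotic gene, rose 5.35-fold and Tdrd1, a piRNA pathway gene, 5.12-fold. Of 20 with a promoter entry, 13 held an E-box CACGTG (65%), against 1401 of all 12719 tested genes with an entry (11.0%). Of the 13 germline genes with an E-box, 5 rose and 5 fell. 

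Primordial germ cell factors also split. Prdm1, which encodes BLIMP1, held 1035 and 1180.0 at day 4, against 42 and 78.8 in 2i medium (18.9-fold higher), whereas Tfap2c did not pass (log2 -0.35) and Nanos3 held 0 and 8.13 at day 4, against 27.6 and 24.6 in 2i medium. Transcripts of the 2-cell-like state fell in 14 of 18 cases and rose in 0 (median -1.64). Zscan4f, of a family of close paralogues that share reads, held 78.8 and 56.9 at day 4, against 249.7 and 168 in 2i medium.

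MicroRNA precursor loci of the miR-290 cluster fell. The cluster on chromosome 7 gives the main microRNAs of naive mouse embryonic stem cells, which speed the cell cycle by silencing its inhibitors. Mature sequences are shown to set out the seeds (bases 2 to 8, in capitals) by which they find targets (RefSeq, GRCm38.p6). On the plus strand they lie at chr7:3218674-3218697 (290a-3p), chr7:3218968-3218989 (291a-3p), chr7:3219529-3219550 (291b-3p), chr7:3220390-3220411 (293-3p) and chr7:3220815-3220837 (295-3p).
miR-291a-3p: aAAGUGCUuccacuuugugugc
miR-295-3p: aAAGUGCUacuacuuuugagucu
miR-290a-3p: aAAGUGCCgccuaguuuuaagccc
miR-291b-3p: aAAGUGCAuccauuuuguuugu
miR-293-3p: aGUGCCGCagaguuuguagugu
The first pair shares the seed AAGUGCU, and the next 2 differ from it at the last seed base. Of 8 loci measured, 7 fell and 0 rose, against 25 of all 310 microRNA loci that fell. Mir291a held 27 and 25.3 at day 4, against 154 and 129.6 in 2i medium (log2 -2.39 ± 0.211 SE, adjusted p = 2.5e-07), and Mir290a held 17.3 and 17.2 at day 4, against 127 and 86.4 in 2i medium (5.81-fold lower). Mir295, with 6.48 and 3.61 at day 4, against 19.2 and 12.7 in 2i medium, did not pass. In these total RNA libraries the reads may come from the primary transcript, so mature microRNA was not measured. All 8 loci overlap another entry. Mir290a and Mir290b overlap each other, as do Mir292 and Mir292b. Every locus but Mir290a and Mir290b overlaps Nlrp12, which held 194 and 148 at day 4, against 891 and 770 in 2i medium. The 7 falls are therefore not those of separate loci. Among let-7 targets Hmga2, a chromatin protein gene, held 2054 and 1966 at day 4, against 115 and 139.8 in 2i medium (15.7-fold higher), and Igf2bp1 and Hmga1 did not pass.

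p53 targets were higher, 14 of 18 with 1 lower (median 1.36). Ccng1 held 4215 and 4311 at day 4, against 1293 and 1152 in 2i medium, and Trp53inp1, Bbc3 and Mdm2, the last encoding the ubiquitin ligase that limits p53, rose 3.23-fold, 3.86-fold and 2.54-fold. Cdkn1a, the p21 gene, did not pass (3762 and 4680.2 at day 4, against 4421 and 2615 in 2i medium). Of 27 cell cycle genes 7 rose and 8 fell (3 fell with libraries scaled to the named total). Over all genes 21.9% rose and 18.7% fell, so no direction is given for this list. The retinoblastoma gene Rb1 held 166 and 188 at day 4, against 22.8 and 19.5 in 2i medium and overlaps Lpar6 and Rcbtb2, which also rose. Cdkn2a rose 2.91-fold, Cdk6 fell 2.89-fold, and the proliferation marker gene Mki67 did not pass. In the Myc network Mycl and Mxd4 rose 4.47-fold and 21.4-fold, and Myc fell 1.57-fold.

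Glycolysis and hypoxia genes fell in 15 of 25 cases and rose in 5 (10 and 6 with libraries scaled to the named total). The glucose transporter genes exchanged: Slc2a1 held 15127 and 16363 at day 4, against 3106 and 3139 in 2i medium (5.04-fold higher), and Slc2a3 held 2154 and 2324 at day 4, against 9865 and 10125 in 2i medium (4.47-fold lower). Pfkp, which shares bases with Pitrm1, and Aldoa fell 7.39-fold and 3.41-fold. In one-carbon metabolism 14 of 21 fell and 3 rose, with Shmt2 and Phgdh, genes of serine use and synthesis, lower by 1.95-fold and 1.68-fold; the deepest fall of the list was that of Tdh (63.6-fold).

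Cholesterol synthesis genes rose, 21 of 23 with 1 lower (18 higher with libraries centred on their median). Hmgcs1, which catalyses an early step, held 9696 and 10072 at day 4, against 3054 and 2386 in 2i medium (3.66-fold higher). Ebp fell 1.77-fold. Nuclear genes of the respiratory chain fell in 17 of 33 cases (9 with libraries scaled to the named total) and rose in 0. Uqcrc1 held 5017 and 6119 at day 4, against 11955 and 12533 in 2i medium (2.21-fold lower). Of 57 ribosomal protein genes 2 rose and 3 fell; their median was -0.26 with libraries centred on their median and 0.05 with libraries scaled to the named total, so no direction is given.

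Immune genes moved both ways. Of antigen presentation genes, H2-K1 held 1306 and 1235 at day 4, against 178 and 169 in 2i medium (7.28-fold higher), and the peptide transporter gene Tap1 rose 14.8-fold. Of RNA sensing genes, Ddx58, which encodes RIG-I, held 19.4 and 18.1 at day 4, against 245 and 267 in 2i medium (13-fold lower), Oas1a fell 37.7-fold, and Mavs, the adaptor gene of RIG-I, fell 2.12-fold. Over the whole list 9 of 21 rose and 6 fell, against 21.9% and 18.7% of all genes.

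**Figure D4:**
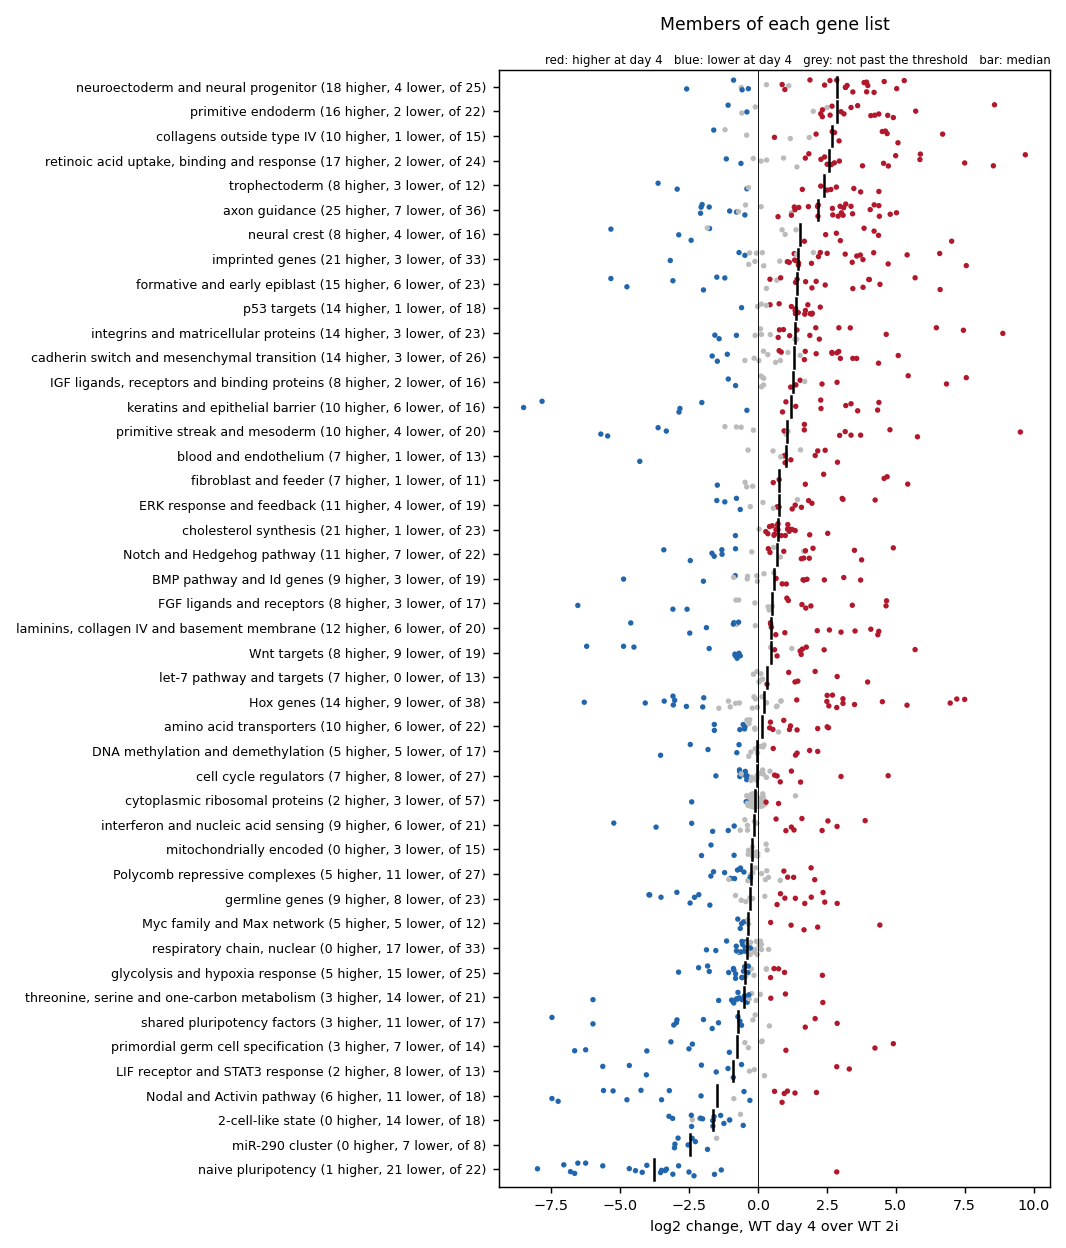
Log2 change at day 4 over 2i medium for the members of 45 gene lists, sorted by median (black bar); red points rose, blue points fell and grey points did not pass the threshold. Neuroectoderm and primitive endoderm lie at the top with medians near 2.85, and naive pluripotency lies at the bottom with a median of -3.79.

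The 8 genes with the largest absolute difference in normalized counts were short noncoding RNAs or overlapped one, and none passed the threshold. Rmrp, the RNA of RNase MRP, held 281230.0 and 283560.0 at day 4, against 444800.0 and 480040.0 in 2i medium (log2 -0.71, adjusted p = 0.098), and Ccdc107, whose exons overlap it, held near-equal values. The other 6 were Rn7sk, Rn7s1, Rn7s2 and 3 models that overlap Rn7s1 or Rn7s2, near-identical copies of the 7SL RNA gene.

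Cells labelled DKO are the only others with both stages, and they share no library with this comparison. Their Prdm14 level was 595 and 571 at day 4 and 1803 in both 2i libraries, above WT at both stages, so only the label is used here. The WT change and the DKO change differed for 2093 of 21450 genes (9.76%), above WT for 1246 (5.81%) and below for 847 (3.95%). Past the threshold, 11 of the 12 largest WT falls were less deep in the DKO-labelled course and 2 of the 12 largest rises were smaller. The choice of extreme WT values favours a smaller change elsewhere. Some of these genes also started lower in DKO-labelled cells, such as Krt42, with 112 and 108 in 2i medium, against 336 and 391 in WT. Nanog changed by -3.32 in DKO-labelled cells, against -8.00 in WT cells (difference 4.68, adjusted p = 1.2e-11). Crabp2 rose by 2.63, less than the fitted 9.69 in WT (adjusted p = 5e-06); since a WT library in 2i medium held no read, the fitted difference depends on the pseudocount, at -7.06 with 1 and -6.01 with 4. Meox1, by contrast, changed by 8.41, against 9.51 in WT, and the difference did not pass (adjusted p = 0.52). Hoxb1 changed by 5.88, against 7.49 in WT (difference -1.62, adjusted p = 0.42).

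**Figure D5:**
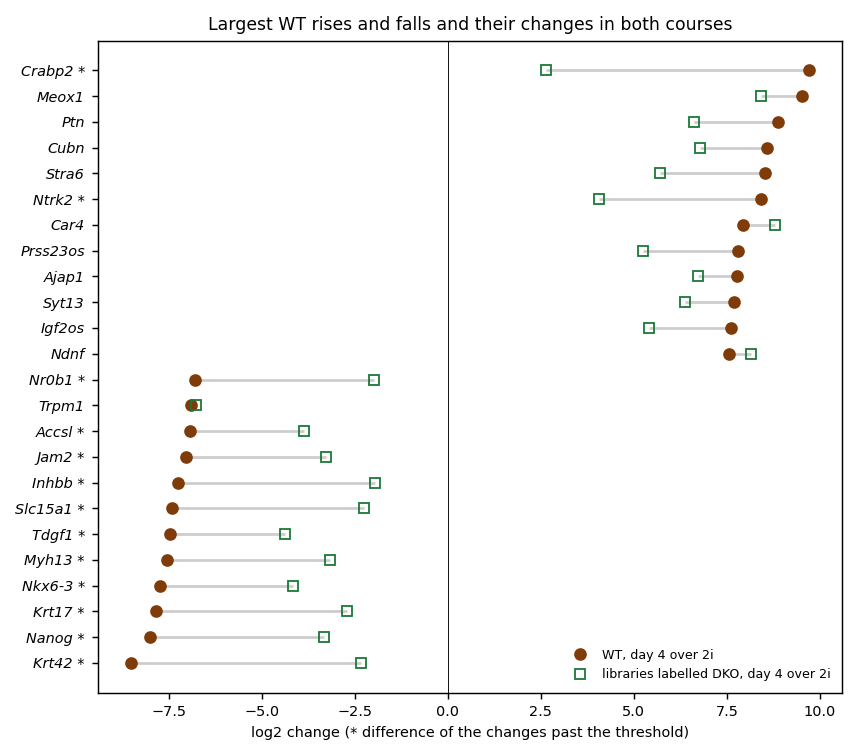
Log2 change at day 4 over 2i medium in WT cells (filled circles) and in DKO-labelled cells (open squares) for the 12 largest WT rises and 12 largest WT falls; an asterisk marks a difference between the courses past the threshold. The falls of Nanog, Krt42 and Inhbb are less deep in DKO-labelled cells, and the rises of Car4 and Ndnf are as large as in WT cells.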

How the data were processed

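Total RNA of mouse cells was sequenced, and the submitters' processing notes name Trim Galore, HISAT2 and featureCounts with mm10/GRCm38. Tool versions, strand setting and scaling: not given in the sources used here. Per column, the table deposited by the authors holds log2 values, which are log2(normalized count + 4) by their smallest value. They were turned back to normalized counts, and whole reads were recovered for all values under 1000 reads (100% within 0.1 of a whole number). Entries without a symbol held 7.61% to 11.1% of reads and were left out. The main test was limma 3.58.1 with a mean-variance trend on log2(normalized count + 1), so fold changes of low genes are understated. It used all 16 libraries as 8 group means and genes with at least 1 normalized count in 2 libraries, with Benjamini-Hochberg adjustment over all genes at 0.05. The difference between the DKO-labelled and WT courses was an interaction in the same fit. A run of the fit on simulated counts changed 200 genes, against 8707 called here. It cannot speak for the effect of scaling on these data. A fold against a library without reads divides stage means, with each library of that stage raised to at least 3 reads. It covers counting error only, and a single library can give a smaller fold. Recovered reads summed over all entries ran from 20696338 to 32710605 per library, with reads of overlapping entries possibly counted more than once.

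The text names the 12 largest rises and falls with a mean of at least 100 normalized counts, key list members and up to 4 large changes per list with a mean of at least 10, up to 8 genes without reads in each stage, and the 8 genes with the largest absolute difference. Other list members and overlapping genes named were chosen after their values were seen. The members and lists were chosen with earlier results of these data known. Alternatives were other pseudocounts, filters, scalings, sample sets, limma-voom on recovered reads, a replicate block and leaving out each library. Gene positions and overlaps are from GENCODE M21 on GRCm38, and sequences from RefSeq on GRCm38.p6. Python 3.11.15, pandas 2.3.3, numpy 2.4.6, matplotlib 3.10.9 and R 4.3.3 were used. A few genes are not reported here by name or in the Hox plot.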

Additional observations from a re-analysis of the deposited data

Results flagged for a closer look

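Of the 24 genes with the largest WT rises and falls, 13 had a change in the DKO-labelled course that differed from that in WT cells by limma's interaction test. Differences are the DKO-labelled change minus the WT change on the log2 scale. These genes were picked for extreme WT values, which favours a smaller change in any other course. Among rises, the difference was -7.06 for Crabp2 and -4.36 for Ntrk2. Among falls of filament and muscle genes it was 6.16 for Krt42, 5.14 for Krt17 and 4.40 for Myh13. In 2i medium these genes stood lower in DKO-labelled than in WT cells. Krt42 held 112 and 108, against 336 and 391 in WT, and Krt17 45.6 and 53.1, against 205 and 252. Myh13 held 38.2 and 28.5, against 179 and 198, and 1.97 and 3.82 at day 4 in DKO-labelled cells. What the lower start adds to these differences was not tested. Nkx6-3 stood higher in 2i medium, at 467 and 403, against 234 and 192 in WT. For transcription factor genes the difference was 4.68 for Nanog, 3.57 for Nkx6-3 and 4.82 for Nr0b1. For Tdgf1 and Inhbb of the Nodal and activin pathway it was 3.09 and 5.29. The remaining differences were 5.15 for Slc15a1, 3.76 for Jam2 and 3.05 for Accsl. Slc15a1 also stood lower in 2i medium in DKO-labelled cells, at 209 and 246, against 475 and 535 in WT. Jam2 and Accsl stood higher there than in WT. Krt42, Krt17, Nkx6-3 and Myh13 had no read in either WT day 4 library, Ntrk2 none in either WT 2i library and Crabp2 none in 1 of them, so the sizes of these differences depend on the pseudocount. With a pseudocount of 4 in place of 1 they were 4.32, 3.55, 1.75, 3.15, -2.83 and -6.01 in that order, all past the threshold.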

How the results depend on the processing

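No gene was called in opposite directions by the reported fit and an alternative. Requiring an absolute log2 change of at least 1 left 5168 genes, 3213 higher and 1955 lower. Leaving out 1 library at a time gave 6882 to 7310 calls, 3624 to 4051 higher and 3158 to 3264 lower; the lone library of an arm was then assumed to vary like the other groups. Of the 24 largest changes, 13 to 16 differed between the courses when a library was left out. Replicate numbers did not pair the samples: deviations of WT day 4 and 2i libraries correlated at 0.0039, and those of other pairs of groups at -0.131 to 0.194, the highest for the DKO-labelled and WT day 4 libraries. With the replicate block 8080 genes were called in the 4 libraries, 4317 higher and 3763 lower, against 7735 without it. Of 264 called named genes 232 kept their call in all 16 settings other than the limit on the log2 change. Genes under 10 normalized counts were called less often (19.4%) than those at 1000 to 10000 (51.4%).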

Other observations

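Keratin and epithelial barrier genes moved to both sides, 10 of 16 higher and 6 lower, although Krt42 and Krt17 were among the largest falls. Notch and Hedgehog genes did so too, 11 of 22 higher and 7 lower. Of 22 amino acid transporter genes 10 rose and 6 fell, against 21.9% and 18.7% of all genes. In the list of let-7 pathway genes and targets 7 of 13 rose and 0 fell.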
